A study of Mus musculus with 10 samples.

Results

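Wfdc12, Wfdc15b, Slpi, Wfdc2 and Spink1 encode 5 small secreted proteins built from protease inhibitor domains, and they are 5 of the 39056 genes in a count table of mouse liver and liver tumours. They were chosen by their measured difference between tumours of MLK3-knockout (KO) and wild-type (WT) mice, several being among the largest decreases in KO tumours. That difference is therefore given below as a description and was not tested. All 5 passed the filter on low counts that left 15811 genes for testing. Slpi, Wfdc12, Wfdc15b and Spink1 were high in WT tumours, lower in KO tumours and low in liver. Wfdc2 differed between the tumours in the other direction, with its lowest mean level in WT tumours and its highest in KO tumours.

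The mice were C57BL/6 males aged 11 months, and 4 groups were sequenced. WT liver and KO liver (2 libraries each) came from mice that drank plain water. WT tumours and KO tumours (3 libraries each) came from mice injected intraperitoneally with DEN (diethylnitrosamine, a carcinogen that alkylates DNA in hepatocytes) at 5 µg per g body weight when 2 weeks old, followed after 1 week by PB (phenobarbital, a tumour promoter) at 0.05% in the drinking water until death. MLK3 is a kinase upstream of JNK encoded by Map3k11. Which part of the gene the knockout lacks, whether every cell lacks it, and how tumours were cut from the liver around them are not stated in the labels. Tumour and treatment cannot be told apart, since no tumour came from an untreated mouse and no liver from a treated one. The replicates are described as biological.

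WAP domains and Kazal domains are small folds held together by disulfide bonds, and a loop of the fold can block the active site of a serine protease. SLPI, the secretory leukocyte protease inhibitor, protects mucosal surfaces from neutrophil elastase and cathepsin G and also dampens inflammatory signalling. SPINK1 (the mouse gene was long called Spink3) is the pancreatic secretory trypsin inhibitor, guards the pancreas against early trypsin activity, and is known as a transcript raised in human liver cancer. WFDC12 and WFDC15B are WAP proteins with antibacterial activity. WFDC2 is an epithelial WAP protein measured in serum as a marker of ovarian cancer.

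The 4 WAP genes lie together on chromosome 2 (positions from GENCODE M21, assembly GRCm38, which mm10 also names), whereas Spink1 lies on another chromosome. Wfdc12 covers 164189231 to 164190608 on the minus strand of chromosome 2 with 3 exons. Wfdc15b covers 164214454 to 164221660 and Slpi 164354070 to 164389095, also on the minus strand. Wfdc2 covers 164562413 to 164568510 on the plus strand. From each gene's RefSeq promoter window, 104 bases that lie outside every annotated exon of the gene are printed. The bases run 5′ to 3′ on the gene's own strand, with each CG dinucleotide in capitals. They come from RefSeq's GRCm38.p6 and cover chr2:164190609-164190712 for Wfdc12, chr2:164221661-164221764 for Wfdc15b, chr2:164356508-164356611 for Slpi and chr2:164562475-164562578 for Wfdc2. The stretches lie upstream of the RefSeq start, except that the one for Wfdc15b ends with the start base and the 2 bases after it. The one for Slpi ends next to the start, the one for Wfdc12 further off and the one for Wfdc2 furthest. Their CG counts therefore do not compare the same part of each promoter. For Slpi and Wfdc2 the stretch lies inside the gene as GENCODE draws it, which begins further upstream.
Wfdc12: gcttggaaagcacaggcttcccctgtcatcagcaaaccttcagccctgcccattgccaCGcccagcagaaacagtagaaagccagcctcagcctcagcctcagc
Wfdc15b: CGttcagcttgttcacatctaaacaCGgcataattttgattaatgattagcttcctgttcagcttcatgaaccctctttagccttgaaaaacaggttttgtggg
Slpi: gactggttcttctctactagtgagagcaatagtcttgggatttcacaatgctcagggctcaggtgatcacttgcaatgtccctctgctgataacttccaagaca
Wfdc2: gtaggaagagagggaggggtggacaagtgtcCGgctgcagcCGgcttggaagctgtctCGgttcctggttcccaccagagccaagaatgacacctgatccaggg
The Slpi stretch holds 0 CG, the Wfdc12 stretch 1, the Wfdc15b stretch 2 and the Wfdc2 stretch 3. The whole promoter window, from 250 bases before to 50 after the start, had a GC content of 43.3% and 2 CG for Slpi, 57.3% and 3 for Wfdc12, 42.3% and 7 for Wfdc15b, and 65.3% and 16 for Wfdc2. The median of 27018 such windows is 52.7% GC and 7 CG. Wfdc2 has the window richest in GC and CG of the 4, at percentiles 82.6 and 66.5 of all windows. Whether base content bears on the levels of these genes was not tested. Windows of the 4 genes were searched on both strands for a TATA box (TATAAA), an AP-1 motif (TGANTCA), a STAT motif (TTCNNNGAA) and a C/EBP motif (TTNNGNAA). No window held any of the first 3, which occur in 14.2%, 7.9% and 8.5% of all windows. The C/EBP letters, present in 40.7% of all windows, were found 3 times for Slpi, 2 times for Wfdc12 and 1 time each for Wfdc15b and Wfdc2. These are matches of letters and not measured binding sites.

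Library totals ran from 12408749 to 18081487 counts, and 3 counts, taken as the limit of a gene without counts, correspond to 0.156 to 0.231 CPM (counts scaled to a common library size) in a library. Intervals and limits cover counting error only and leave out the spread between libraries. Reads without molecular identifiers are not independent molecules, so the intervals can be too narrow even for counting error. Levels are TMM-scaled CPM, given with the SD between libraries of a group, and log2 fold changes carry the standard error (SE) of edgeR's quasi-likelihood fit. In a bulk sample, fewer cells of a type and less RNA per cell cannot be told apart. The KO tumour library numbered 2 stood apart from the other 2 of its group. Its tumour marker transcripts were at liver levels, with 55 counts of Afp (alpha-fetoprotein) against 5791 and 2337, and 7 counts of Gpc3 (glypican 3) against 608 and 678. Map3k11 itself, at 11.4 ± 5 CPM in WT liver, 5.59 ± 0.3 in KO liver (SD, n = 2 each), 12 ± 2.4 in WT tumours and 8.71 ± 2.5 in KO tumours (SD, n = 3 each), checks neither the knockout nor the labels, because 3' tags can lie outside the deleted part.

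Slpi, the inhibitor of neutrophil elastase, had 56 and 62 counts in the WT livers, 70 and 38 in the KO livers, 1384, 1996 and 1673 in the WT tumours, and 363, 1 and 439 in the KO tumours. These are 3.52 and 3.91 CPM, 4.00 and 2.69 CPM, 72.1, 145 and 107 CPM, and 28.0, 0.0698 and 31.7 CPM. Every WT tumour lay above every other library. The KO tumours numbered 1 and 3 lay above all livers, while KO tumour 2, with its single count, lay below them. In order of mean level, WT tumours (108 ± 36.6 CPM, n = 3) were followed by KO tumours (19.9 ± 17.3, n = 3), WT liver (3.71 ± 0.28, n = 2) and KO liver (3.35 ± 0.93, n = 2). The neighbouring pairs after the first overlapped in their libraries.

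Spink1 (chromosome 18, 43728082 to 43737557, minus strand), the trypsin inhibitor, had 31 and 6 counts in the WT livers, 0 and 10 in the KO livers, 2425, 11777 and 4770 in the WT tumours, and 258, 28 and 764 in the KO tumours. The levels were 1.95 and 0.378 CPM, 0 and 0.708 CPM, 126, 858 and 306 CPM, and 19.9, 1.95 and 55.1 CPM. The WT tumours again lay above all other libraries. KO tumour 2 stood at the level of the higher WT liver. Mean levels fell from 430 ± 381 CPM in WT tumours (n = 3) to 25.6 ± 27 in KO tumours (n = 3), 1.16 ± 1.1 in WT liver and 0.354 ± 0.50 in KO liver (n = 2 each), and the 2 liver groups overlapped.

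Wfdc15b, one of the antibacterial WAP genes, had 3 and 81 counts in the WT livers, 0 and 2 in the KO livers, 986, 4233 and 577 in the WT tumours, and 191, 21 and 96 in the KO tumours. In CPM this gave 0.189 and 5.11, 0 and 0.142, 51.4, 308 and 37.0, and 14.7, 1.47 and 6.92. WT liver 2 exceeded KO tumour 2, so that WT liver and KO tumours overlapped, whereas WT tumours overlapped with no other group. Group means were 132 ± 153 CPM in WT tumours (n = 3), 7.70 ± 6.7 in KO tumours (n = 3), 2.65 ± 3.5 in WT liver and 0.0708 ± 0.10 in KO liver (n = 2 each).

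Wfdc12, its neighbour in the cluster, was close to absent outside WT tumours. It had 0 and 0 counts in the WT livers, 1 and 0 in the KO livers, 236, 852 and 25 in the WT tumours, and 10, 1 and 0 in the KO tumours. The WT tumours spanned 1.60 to 62.0 CPM (25.3 ± 32.3, n = 3) and the KO tumours 0 to 0.771 CPM (0.280 ± 0.43, n = 3). The SD of the WT tumours exceeded their mean. KO tumours and both liver groups overlapped at or near the limit of 3 counts.

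Wfdc2, the ovarian cancer marker, had 277 and 307 counts in the WT livers, 176 and 101 in the KO livers, 183, 42 and 109 in the WT tumours, and 559, 487 and 452 in the KO tumours. The levels were 17.4 and 19.4 CPM, 10.1 and 7.15 CPM, 9.53, 3.06 and 6.99 CPM, and 43.1, 34.0 and 32.6 CPM. KO tumours (36.6 ± 5.7 CPM, n = 3) were the highest group, then WT liver (18.4 ± 1.4, n = 2), KO liver (8.61 ± 2.1, n = 2) and WT tumours (6.53 ± 3.3, n = 3). KO tumour 2 did not stand apart for this gene. KO liver and WT tumours overlapped, and no other neighbours in this order did.

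**Figure D1:**
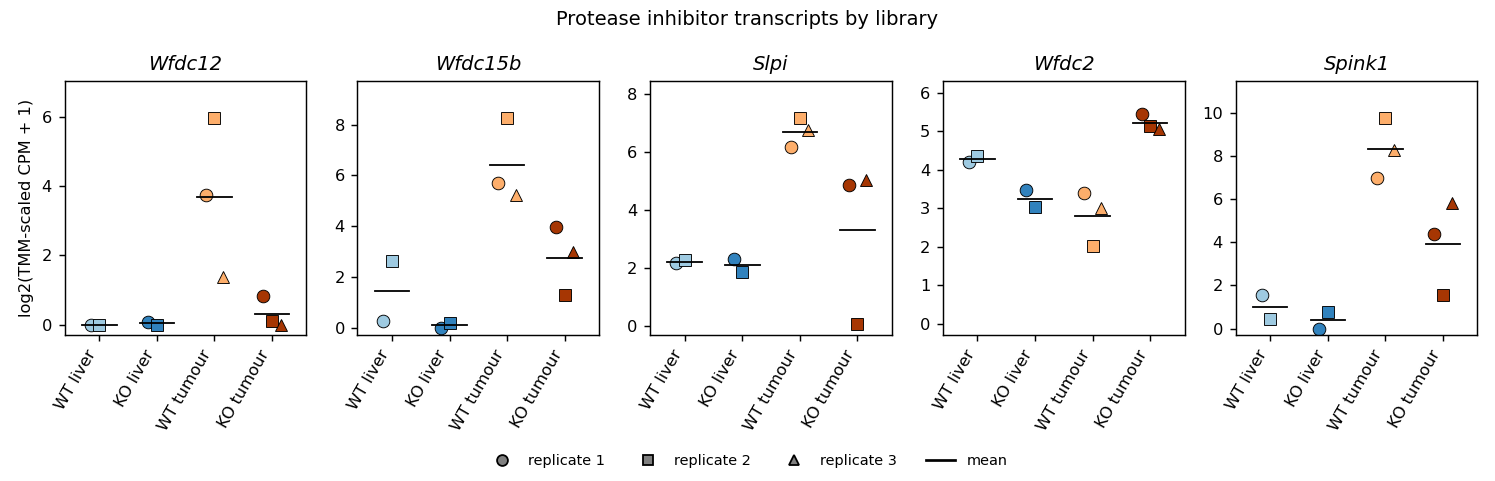
Level of each inhibitor transcript in the 10 libraries as log2(TMM-scaled CPM + 1), with 1 panel per gene, 1 symbol per library shaped by replicate number, and a bar at the mean of each group. The WT tumours lie above all other libraries for Wfdc12, Wfdc15b, Slpi and Spink1, and the KO tumours lie above all other libraries for Wfdc2.

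The first comparison, WT tumours against WT liver, describes these genes in tumours that carry MLK3. Slpi, Spink1, Wfdc15b and Wfdc12 were higher in the tumours and Wfdc2 was lower, each without overlap between the libraries. Spink1 rose by 8.52 on the log2 scale (SE 1.43, adjusted p = 0.00138 by edgeR), from 1.16 to 430 CPM. Wfdc15b rose by 5.64 (SE 1.26, adjusted p = 0.0105) and Slpi by 4.86 (SE 1.15, adjusted p = 0.015), a 29.1-fold difference in mean CPM. Wfdc12 had no count in WT liver, where 3 counts per library correspond to a mean of 0.189 CPM. Against that limit its mean in the tumours was at least 134-fold higher, or at least 36.8-fold without WT tumour 2. These folds hold for the mean only, since single tumours ran from 1.60 to 62.0 CPM. Wfdc12 passed the filter on low counts through the WT tumours alone. Its test is therefore not independent of the filter, and its p is not given. Wfdc2 was the one gene that fell, with a log2 fold change of -1.49 (SE 0.43, adjusted p = 0.044). Of the 4 genes other than Wfdc12, 3 were called higher and 1 lower, in a comparison where 3.64% and 4.7% of all 15811 genes were. These p-values are not independent of the choice of genes, because the WT tumour libraries also entered the comparison that chose them.

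Some of these calls rest on single libraries. Without WT tumour 2, the highest library for Wfdc12, Wfdc15b, Slpi and Spink1 and the lowest for Wfdc2, Slpi and Spink1 were called, and the log2 fold change of Wfdc15b was 4.04 (adjusted p = 0.0603), that of Wfdc2 -1.17 (adjusted p = 0.0961) and that of Spink1 7.51. Without WT liver 2 that of Wfdc15b was 9.39. Without WT liver 1 or 2 neither Slpi (adjusted p = 0.0739 or 0.0674) nor Wfdc2 (0.0964 or 0.147) was called. The call of Wfdc2 also ended when the replicate number was added as a block (-1.60, adjusted p = 0.0541), and over all alternatives it was kept in 4 of 7 other settings and in 3 of 10 fits without a single library.

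The second comparison set KO tumours against KO liver. All 5 fitted differences were positive, and none of the 5 genes passed edgeR's test (4 had an unadjusted p under 0.05), in a comparison where 0.0759% of all genes were called higher and 0% lower. Spink1 gave a log2 fold change of 6.26 (SE 1.44, adjusted p = 0.135), from 0.354 to 25.6 CPM. For Wfdc15b the fitted value was 6.74 (SE 1.79, adjusted p = 0.186), but KO liver held only 2 counts, and the ratio of the pooled levels was 118 with a 95% exact interval of 32.4 to 980. Wfdc2 gave 2.08 (SE 0.47, adjusted p = 0.124), its 3 KO tumours lying above both KO livers. Slpi gave 2.56 (SE 1.04, adjusted p = 0.445). Wfdc12 had 11 counts in the KO tumours, 10 of them in KO tumour 1, and 1 count in the KO livers. Its pooled levels had a ratio of 8.44 (95% exact interval 1.23 to 363, counting error only), and the adjusted p by edgeR was 0.666.

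These values depended on single libraries. Without KO liver 2 the log2 value of Spink1 was 11.63 and that of Wfdc15b 9.89, against a single KO liver with no count of either. Without KO liver 1 they were 5.17 and 5.68, and Spink1 gave 5.03 without KO tumour 3 and Wfdc15b 5.87 without KO tumour 1. Without KO tumour 2, 2 of the 5 genes were called higher, Slpi with a log2 fold change of 3.15 (adjusted p = 0.000816) and Spink1 with 6.82 (adjusted p = 0.00823). DESeq2, run on all libraries, called 3 of the 5, namely Wfdc15b (adjusted p = 0.0158), Wfdc2 (adjusted p = 0.00209) and Spink1 (adjusted p = 0.0143). Over all genes, edgeR gave 1520 with an unadjusted p under 0.05 and DESeq2 called 385 higher and 42 lower. The KO tumour libraries, too, entered the comparison that chose the genes.

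KO liver was compared with WT liver to see the genotype without carcinogen, in libraries that played no part in choosing the genes. None of the 5 genes passed edgeR's test (0% of all genes were called higher and 0.00632% lower), and 2 of them, Wfdc2 and Wfdc15b, had an unadjusted p under 0.05. Wfdc2 was lower in both KO livers (10.1 and 7.15 CPM) than in both WT livers (17.4 and 19.4 CPM), with a log2 fold change of -1.09 (SE 0.48, unadjusted p = 0.038, adjusted p = 0.683 by edgeR). Slpi was nearly level at -0.14 (SE 1.09, adjusted p = 1). Spink1 gave -1.81 (SE 1.66, adjusted p = 0.87) on 37 counts in WT and 10 in KO liver, and the value ran from -7.18 without KO liver 2 to -0.22 without WT liver 1. Wfdc15b gave -5.20 (SE 1.95, adjusted p = 0.616), which reflects the 81 counts of 1 WT liver: without that library the value was -1.45, and without KO liver 2 it was -8.36. The ratio of its pooled levels was 41.8 (95% exact interval 11.2 to 351, from 84 counts against 2). Wfdc12 was at or below the limit in both groups, and no fold is given. An unadjusted p under 0.05 was reached by 1151 of all genes, and DESeq2 called 89 genes higher and 113 lower, none of them among the 5.

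Between the tumour groups, the comparison that chose the genes, mean CPM was 90.3-fold lower in KO than in WT tumours for Wfdc12, 17.2-fold for Wfdc15b, 16.8-fold for Spink1 and 5.44-fold for Slpi. Fitted log2 fold changes were -6.49 (SE 1.40), -4.10 (SE 0.97), -4.07 (SE 0.93) and -2.44 (SE 0.85). For Wfdc2 the mean was 5.60-fold higher in KO tumours, with a log2 fold change of 2.48 (SE 0.41). The libraries of the 2 groups did not overlap for any of the 5. Over all genes 12.2% were higher and 10.9% lower in KO tumours without overlap, and edgeR called 3.25% higher and 1.27% lower. The sizes depended on single libraries. Without WT tumour 2 the log2 value was -4.56 for Wfdc12, -2.49 for Wfdc15b and -3.05 for Spink1. Without KO tumour 1 it was -9.19 for Wfdc12 and -4.98 for Wfdc15b, and without KO tumour 3 it was -5.30 for Spink1. Slpi ran from -2.95 without KO tumour 3 to -1.86 without KO tumour 2.

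The difference between the change from liver to tumour in KO mice and that in WT mice contains the choosing comparison and is likewise only described. It was 3.57 (SE 0.63) for Wfdc2, -2.30 (SE 1.37) for Slpi, -2.26 (SE 2.08) for Spink1 and 1.10 (SE 2.39) for Wfdc15b on the log2 scale. Wfdc2 stood above both KO livers in every KO tumour and below both WT livers in every WT tumour. For Spink1 and Wfdc15b the SE was about as large as the value or larger, and the sign turned when single livers were left out. Over all genes, this difference was called higher for 1.22% and lower for 0.367%.

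**Figure D2:**
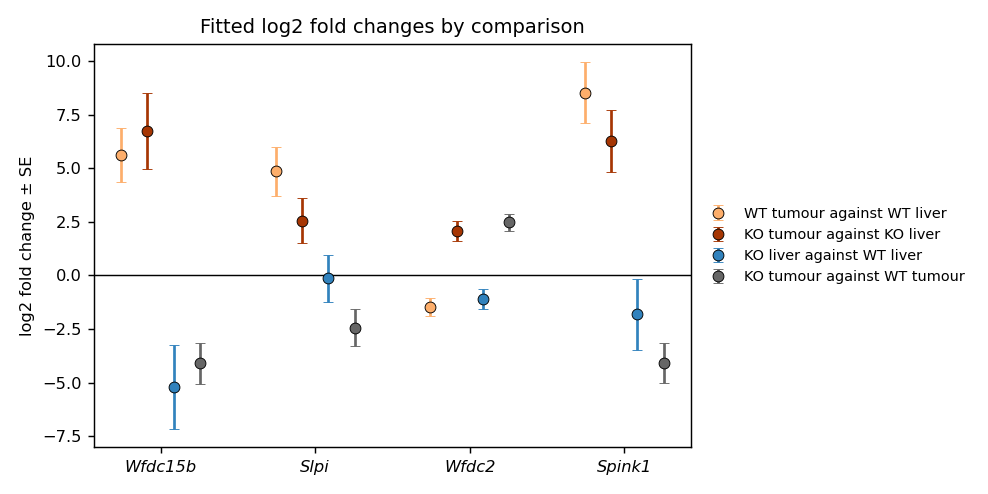
Fitted log2 fold change with its standard error for Wfdc15b, Slpi, Wfdc2 and Spink1 in 4 comparisons of groups, Wfdc12 being left out because its liver groups had 0 or 1 count. Slpi and Spink1 lie above 0 in tumour against liver of both genotypes, while Wfdc2 lies at -1.49 in WT and at 2.08 in KO mice.

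Across the 10 libraries, log2(CPM + 1) of Spink1 correlated with that of Slpi at Pearson r = 0.929 and with that of Wfdc15b at r = 0.922. Wfdc12 correlated with Wfdc15b at r = 0.875 and with Slpi at r = 0.732. Wfdc2 correlated negatively with each of the others, between r = -0.641 (Wfdc12) and r = -0.397 (Spink1). The libraries share groups, and the genes were chosen for their difference between groups, so these values describe the group pattern.

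The genes most like each of the 5 were taken by Pearson correlation over the 10 libraries among 11771 genes with a mean of at least 1 CPM. For Spink1 the nearest was Galnt6, a glycosyltransferase that starts O-linked sugar chains (r = 0.994), at 0.189 ± 0.27 CPM in WT liver, 0.106 ± 0.15 in KO liver, 55.6 ± 37.3 in WT tumours and 6.51 ± 5.9 in KO tumours, followed by the sulfotransferase Sult2a5 (r = 0.984) and the milk fat globule protein Mfge8 (r = 0.980). For Slpi it was Igfbp1, an insulin-like growth factor binding protein secreted by liver (r = 0.987), at 75.0 ± 50.6, 34.5 ± 6.4, 2989 ± 1260 and 358 ± 328 CPM in the same order, then Coq8b (r = 0.985) and the zinc transporter Slc39a4 (r = 0.977). For Wfdc15b they were the transcription factor Maff (r = 0.975), the cytokinesis gene Ect2 (r = 0.970) and Rhbdf1 (r = 0.967). For Wfdc12 they were Nhs (r = 0.977), the tissue factor gene F3 (r = 0.974) and Vmn2r3 (r = 0.974). Wfdc2 was most like Uros, an enzyme of haem synthesis (r = 0.959), at 7.87 ± 0.38, 4.00 ± 1.5, 3.82 ± 1.9 and 10.6 ± 2.8 CPM, then Tmem183a (r = 0.922) and Selenoi (r = 0.917).

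The other genes tested in the WAP neighbourhood on chromosome 2 were not called by edgeR. The 4 WAP members span 379.3 kb, and the cluster from Wfdc5 to Wfdc3 spans 569.6 kb (164176327 to 164745931) and holds 40 annotated genes. Of the 36 others, 31 were in the count table, 23 of these had no count in any library and 6 were tested. These 6 are Matn4, Sdc4 (a cell surface proteoglycan), Sys1, Dbndd2, Pigt (part of the enzyme that attaches GPI anchors) and Wfdc3, and in each of the 4 comparisons of groups 0 of the 6 were called and at most 1 had an unadjusted p under 0.05. Sdc4, which lies between Slpi and Wfdc2, had log2 fold changes of -0.41 in WT tumours against liver and -0.39 in KO tumours against liver. Wfdc3, the other WAP gene tested there, was low and uneven, with 0 and 0 counts in the WT livers, 39 and 0 in the KO livers, 21, 68 and 93 in the WT tumours and 0, 0 and 24 in the KO tumours. DESeq2 called it higher in WT tumours against WT liver (adjusted p = 0.0159), and no other of the 6. Of 12 other WAP genes in the cluster, 10 had no count. An antisense gene, A730032A03Rik, overlaps Wfdc12 on the opposite strand and was not analysed here; as the strand setting of the counting is not stated in the sources used here, reads of the 2 cannot be told apart.

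**Figure D3:**
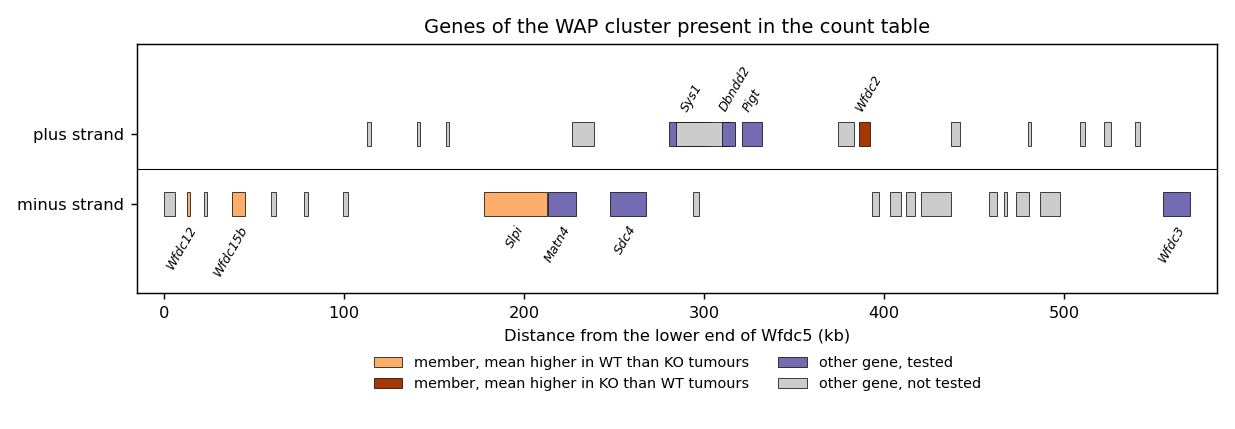
Genes of the WAP cluster that are in the count table, drawn to scale by distance from the lower end of Wfdc5 in kb, with genes of the plus strand above the line and of the minus strand below it. The 4 inhibitor genes (orange where lower in KO than in WT tumours, brown where higher) lie among 6 others that were tested and not called by edgeR (purple) and others with too few counts to be tested (grey).

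Outside that cluster, the WAP family had 1 gene that passed edgeR's test, Wfdc21, a WAP gene strongly expressed in mouse liver. It had 30884 and 30513 counts in the WT livers, 31637 and 30660 in the KO livers, 6543, 4199 and 7811 in the WT tumours, and 39179, 26833 and 30945 in the KO tumours. All WT tumours lay below all other libraries, while KO tumours and livers overlapped. It fell from 1933 ± 11.3 CPM in WT liver (n = 2) to 383 ± 104 in WT tumours (n = 3), with a log2 fold change of -2.34 (SE 0.26, adjusted p = 4.42e-05), and was 2.63 higher on the log2 scale in KO than in WT tumours (SE 0.25, adjusted p = 1.17e-05). Neither KO tumours against KO liver (0.25, SE 0.26) nor KO against WT liver (0.04, SE 0.29) passed. Both called comparisons use the same WT tumour libraries, and the same holds for the further genes below. Of 23 listed WAP genes 11 had no count and 11 were tested, and apart from the members 7 were tested, of which edgeR called Wfdc21 alone. DESeq2 also called Wfdc3, as above, and Wfdc17, a WAP gene of macrophages, higher in KO tumours against KO liver (adjusted p = 0.0483). The median log2 fold change of those 7 was 0 in WT tumours against liver and 0.49 in KO against WT tumours, where the medians of all genes were 0.09 and -0.03.

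Among 31 listed genes with Kazal or Kazal-like domains, 15 were tested, and in WT tumours against liver edgeR called Spink1 alone. Spink1 was chosen for its difference between the tumours, so its call is not independent of that choice. The other 14, which include the activin antagonist Fst, the matrix protein Sparc and Agrn, had 0 called by edgeR in each of the 4 comparisons, with an unadjusted p under 0.05 for 5 in WT tumours against liver, 1 in KO tumours against liver, 2 in KO against WT liver and 4 in KO against WT tumours. Of all 15811 genes, 3388, 1520, 1151 and 2362 had such a p in the same order. These numbers also serve for the lists below. DESeq2 called 4 of the 14 higher in WT tumours against liver (Fst, Fstl4, Sparc and Kazald1) and 1 lower in KO against WT tumours (Kazald1). None of the other Spink genes except Spink10 had enough counts to be tested. The median log2 fold changes of the 14 were 1.13 in WT tumours against liver, 0.31 in KO tumours against liver, 0.12 in KO against WT liver and -0.80 in KO against WT tumours, beside medians of 0.09, 0.06, 0 and -0.03 over all genes.

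Of 39 listed serine proteases, targets or possible targets of these inhibitors, 12 had no count and 15 were tested. Prss1 and Prss2, the trypsins held in check by SPINK1 in the pancreas, and Ctsg, the cathepsin G blocked by SLPI, had 0 counts in all 10 libraries, which allows up to 3 counts per library. Elane, the neutrophil elastase, had 1 count in all. The elastase gene Cela1 (12804 counts in all) and Prtn3, the proteinase of neutrophil granules (851 counts), were tested and not called. Hgfac, the protease that activates hepatocyte growth factor, stood higher in WT tumours (253 ± 20.3 CPM, n = 3) than in WT liver (109 ± 19.5, n = 2), with a log2 fold change of 1.21 (SE 0.22, adjusted p = 0.00245), and lower in KO than in WT tumours (-1.01, SE 0.19, adjusted p = 0.00507), where it stood at 126 ± 3.9 CPM. Tmprss6, the membrane protease that restrains hepcidin, was lower in WT tumours than in WT liver (-0.91, SE 0.25, adjusted p = 0.0319). The other 13 were called in neither of these comparisons. In KO tumours against KO liver 0 of the 15 were called by edgeR (2 with an unadjusted p under 0.05) and 1 by DESeq2, the granzyme gene Gzma (adjusted p = 0.019). In KO against WT liver it was 0 by both (1 with an unadjusted p under 0.05).

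Other families of protease inhibitors moved in both directions. Of 35 tested, 8 were higher and 4 lower in WT tumours against WT liver, and 2 were higher and 5 lower in KO than in WT tumours. Over all genes these shares were 3.64% and 4.7%, and 3.25% and 1.27%. Serpine2, an inhibitor of thrombin and plasminogen activators, fell from 77.5 ± 16.4 CPM in WT liver (n = 2) to 6.30 ± 2.0 in WT tumours (n = 3; log2 fold change -3.61, SE 0.30, adjusted p = 2.54e-06), and stood at 48.8 ± 4.6 in KO tumours (2.94 higher than in WT tumours, SE 0.28, adjusted p = 1.29e-05). Serpinb6a, an intracellular serpin, rose from 29.5 ± 3.5 to 158 ± 61.7 CPM in WT tumours (2.42, SE 0.36, adjusted p = 0.000518) and was at 34.2 ± 10.2 CPM in KO tumours (-2.20, SE 0.31, adjusted p = 0.000398). Itih5 and Itih2, heavy chains of inter-alpha-trypsin inhibitors, rose in WT tumours by 4.16 (SE 0.65, adjusted p = 0.000808) and 1.28 (SE 0.23, adjusted p = 0.00211). Itih2 was lower in KO than in WT tumours (-1.30, SE 0.20, adjusted p = 0.000873). Itih5 was not called there by edgeR (-1.81, SE 0.50, adjusted p = 0.0514), whereas DESeq2 called it lower (adjusted p = 0.00614). The median of the 35 was 0.65 in WT tumours against liver and -0.41 in KO against WT tumours, beside 0.09 and -0.03 over all genes. In KO tumours against KO liver 0 of the 35 were called by edgeR (3 with an unadjusted p under 0.05), and DESeq2 called Itih5 higher (adjusted p = 0.000319). In KO against WT liver it was 0 by both tools (1 with an unadjusted p under 0.05).

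**Figure D4:**
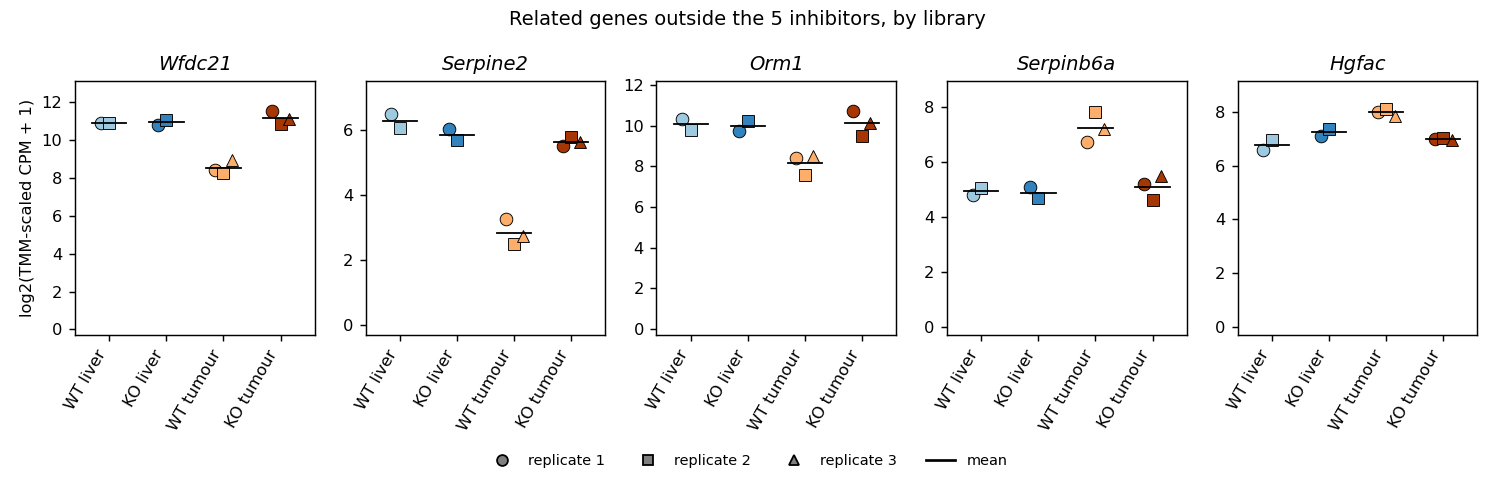
Level of Wfdc21, Serpine2, Orm1, Serpinb6a and Hgfac in the 10 libraries as log2(TMM-scaled CPM + 1), with 1 symbol per library shaped by replicate number and a bar at the group mean. The WT tumours lie below all other libraries for Wfdc21, Serpine2 and Orm1 and above them for Serpinb6a and Hgfac, while the KO tumours lie near the livers.

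NF-kB and IL-6/STAT3 signalling are known inducers of Slpi and Spink1 in other settings, and 31 genes of these pathways and their acute phase targets were tested. In WT tumours 2 were higher and 5 lower than in WT liver. In KO tumours 5 were higher and 0 lower than in WT tumours. Over all genes 3.64% and 4.7%, and 3.25% and 1.27%, were called. The 2 that rose in WT tumours were Tnfaip3, an inhibitor of NF-kB signalling (5.74, SE 1.60, adjusted p = 0.0371), and Lcn2, an iron carrier of the acute phase (3.95, SE 1.15, adjusted p = 0.0468). Neither was called between the tumours. The transcription factor gene Stat3 fell in WT tumours (-0.92, SE 0.27, adjusted p = 0.0437), and the other calls were of acute phase protein genes. Orm1 fell from 1080 ± 270 CPM in WT liver (n = 2) to 298 ± 93.8 in WT tumours (n = 3; -1.86, SE 0.34, adjusted p = 0.00284) and stood at 1183 ± 489 in KO tumours (1.99, SE 0.32, adjusted p = 0.00149). Crp fell likewise (-1.58, SE 0.24, adjusted p = 0.000618) and was 0.99 higher in KO than in WT tumours (SE 0.22, adjusted p = 0.0154). Saa1 and Saa2, serum amyloid A genes, were called in both comparisons in the directions of Orm1, but the counts of Saa2 were uneven, with 24085 and 3405 in the WT livers and 16052, 348 and 1606 in the KO tumours. Saa3 was called by edgeR in KO against WT tumours (3.08, SE 0.62, adjusted p = 0.00796) and not in WT tumours against liver (-2.08, SE 0.64, adjusted p = 0.0604). DESeq2 called it lower in the latter (adjusted p = 0.0238). In all, DESeq2 called 2 higher and 7 lower in WT tumours against liver, and 5 higher and 0 lower in KO against WT tumours. The median of the 31 was -0.15 in WT tumours against liver and -0.03 in KO against WT tumours, beside 0.09 and -0.03 over all genes. In KO tumours against KO liver 0 were called by edgeR (6 with an unadjusted p under 0.05) and 2 by DESeq2, Osmr and Tnfaip3, both higher. In KO against WT liver 0 were called by edgeR (3 with an unadjusted p under 0.05) and 1 by DESeq2, Osmr, lower. Only transcripts were measured here, not the activity of the pathways. Whether these pathways bear on the levels of the 5 genes was not tested.

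Markers of the cell types known to make these proteins were measured in the same libraries. Pancreatic acinar cells are the main source of SPINK1 in health, and 11 of 17 acinar markers, among them Prss1, Prss2, Cpa1, Pnlip and Amy2a5, had no count in any library. The summed acinar level of 66.5 to 75.2 CPM in WT liver, 65.0 to 75.8 in KO liver, 61.3 to 180 in WT tumours and 55.2 to 83.1 in KO tumours was nearly all Cela1. Neutrophils, a source of SLPI, gave summed levels of 26.1 to 31.7 CPM in WT liver, 23.9 to 25.3 in KO liver, 61.2 to 237 in WT tumours and 30.8 to 212 in KO tumours, and edgeR called 0 of the 9 tested of 15 markers in each comparison, with an unadjusted p under 0.05 for 3 in WT tumours against liver, 2 in KO tumours against liver, 2 in KO against WT liver and 0 between tumours. DESeq2 called Csf3r higher in WT tumours and S100a8 higher in KO tumours, each against its own liver. S100a8 and S100a9 made up most of the neutrophil sum in the tumours, with 159 and 51.7 CPM in WT tumour 3 and 148 and 45.2 in KO tumour 1. The granule and surface markers Ly6g, Mpo and Elane each had no count in 9 libraries, so the sum is a weak measure of neutrophils. KO tumour 2, which had the single Slpi count, had the lowest sum of the 6 tumours for the neutrophil, acinar, macrophage and hepatocyte lists, while KO tumour 1, with 363 Slpi counts, had a neutrophil sum above 2 of the 3 WT tumours. Cholangiocytes, epithelial cells that could hold WFDC2 and SLPI, gave 999 to 1213 CPM in WT liver, 1222 to 1235 in KO liver, 1005 to 1504 in WT tumours and 1059 to 1113 in KO tumours over 20 markers. Of the 17 tested, 5 were higher and 1 lower in WT tumours against WT liver, where 3.64% and 4.7% of all genes were, among them Krt23 (9.0, SE 1.37, adjusted p = 0.000615), Tspan8 (6.53, SE 1.45, adjusted p = 0.00999), Prom1 (6.45, SE 1.37, adjusted p = 0.00764) and the lower Pigr (-1.42, SE 0.29, adjusted p = 0.00534). In KO against WT tumours 2 were called lower, Krt23 (-3.57, SE 0.80, adjusted p = 0.017) and Sox9 (-1.12, SE 0.23, adjusted p = 0.00989), and 1 higher, Pigr (1.08, SE 0.26, adjusted p = 0.0266), beside 1.27% and 3.25% of all genes. In KO tumours against KO liver edgeR called 0 of the 17 (4 with an unadjusted p under 0.05). DESeq2 called Cldn7 and Tspan8 higher there (adjusted p = 0.0207 and 0.00569). In KO against WT liver edgeR called 0 (2 with an unadjusted p under 0.05), and DESeq2 called Krt23 higher (adjusted p = 0.0305). The keratin genes Krt7 and Krt19, which define the type, stayed at or below 1.44 CPM in every library.

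Macrophage and Kupffer cell markers summed to 489 to 511 CPM in WT liver, 486 to 769 in KO liver, 746 to 1175 in WT tumours and 670 to 1030 in KO tumours. Of 15 tested, 3 were called higher and 0 lower in WT tumours against WT liver, where 3.64% and 4.7% of all genes were. Among the 3 was Gpnmb (4.71, SE 0.93, adjusted p = 0.00453). In KO against WT tumours (3.25% of all genes higher, 1.27% lower) Gpnmb was called lower (-4.39, SE 0.76, adjusted p = 0.00277) and the scavenger receptor gene Marco higher (2.83, SE 0.48, adjusted p = 0.00245). Marco also stood higher in the KO livers (47.4 and 62.4 CPM) than in the WT livers (3.71 and 5.24 CPM). DESeq2 called it there (log2 fold change 3.61, adjusted p = 5.9e-05), and edgeR called 0 of the 15 (2 with an unadjusted p under 0.05). In KO tumours against KO liver edgeR called 0 (2 with an unadjusted p under 0.05), and DESeq2 called Gpnmb higher (adjusted p = 0.0126). The 10 hepatocyte markers summed to 64670 to 66405 CPM in WT liver, 68533 to 73663 in KO liver, 127277 to 171929 in WT tumours and 59615 to 77194 in KO tumours. Albumin (Alb) and 4 more secreted proteins were called higher, and Cps1 lower, in WT tumours against WT liver, and the same 5 were called lower in KO than in WT tumours, for Alb by 1.23 on the log2 scale (SE 0.20, adjusted p = 0.00141). The shares of all genes in these comparisons are those given for the lists above. Neither tool called any of the 10 in KO tumours against KO liver or in KO against WT liver. The summed hepatocyte level, mostly Alb and Trf, was highest in the WT tumours, and in KO tumours it overlapped with liver. Other markers of the list did not follow it. Apob, Ttr, Hnf4a and Fgb were called by edgeR in none of the comparisons. DESeq2 called Hnf4a lower in WT tumours against WT liver (adjusted p = 0.0124). What part any of these cell types has in the levels of the 5 genes was not tested.

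**Figure D5:**
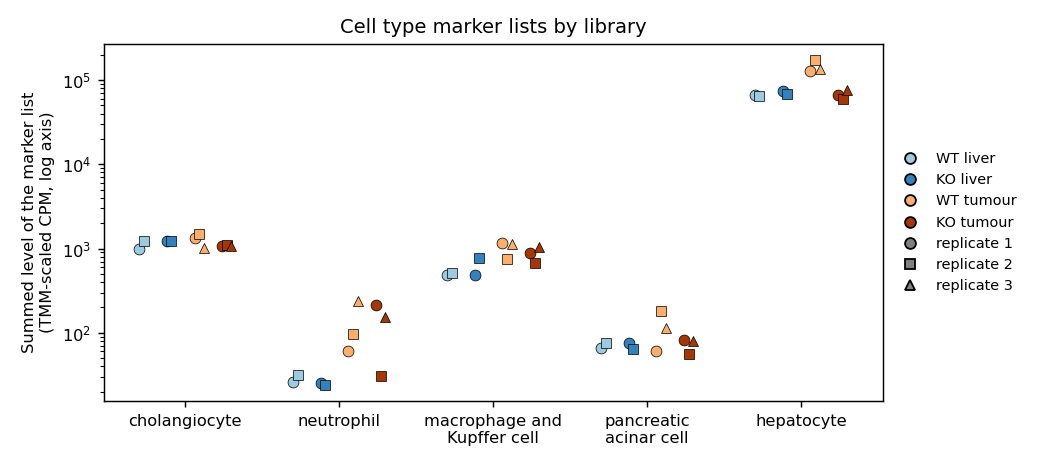
Summed level of 5 lists of cell type markers in each library, in TMM-scaled CPM on a log axis, with colour for group and shape for replicate number. The neutrophil sum of KO tumour 2 (30.8 CPM) lies among the livers, and the hepatocyte sum is highest in the 3 WT tumours.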

How the data were processed

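Messenger RNA of 10 samples was sequenced from libraries built with the strand-specific QuantSeq 3' forward kit from 50 ng of RNA each, per the labels' protocols, in which a read lies near the 3' end of a transcript. The authors deposited 1 table of raw read counts per gene, without normalization. Per the submitters' processing notes, BWA, featureCounts and the mm10 build were used. Their versions, the annotation, the strand setting and the rule for multiply mapped reads are not given in the sources here.

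From these counts, genes were kept by filterByExpr, libraries were scaled by TMM, and edgeR 4.0.16 (R 4.3.3) fitted a single quasi-likelihood model of the 4 groups to all 10 libraries, with 6 residual and 8.78 prior degrees of freedom and a coefficient of variation of 71.8%. p-values were adjusted by Benjamini-Hochberg over all 15811 genes, and an adjusted p under 0.05 was called. CPM divide a count by the library's total over tested genes times its TMM factor. Symbols were matched for 38872 of the 39056 identifiers, Spink1 under an older identifier version than that of GENCODE M21. RefSeq promoter windows were matched for 4 of the 5 genes. Replicate libraries differed by a chi-square of 34.9 to 82.5 per degree of freedom, so none was counted as a duplicate.

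The members and the gene lists were chosen with earlier results of these data known. Genes outside the 5 were named by rule: from each list and comparison, up to 3 called genes of lowest p; the tested WAP genes of the cluster; the 3 genes most like each member; and of each marker list those at 0 and the highest. Afp, Gpc3, Sdc4, Spink10, Fst, Sparc, Agrn, Ctsg, Cela1, Prtn3, Tnfaip3, Lcn2, Stat3, Saa1, genes called by DESeq2 alone and the named cholangiocyte, macrophage and hepatocyte markers beyond that rule were named after their values were seen, and 1 related gene is not reported here. Alternatives were RLE and upper quartile scaling, no filter, DESeq2 1.42.0, a replicate block, the compared groups alone, a test against a fold change of 1.5, CPM without TMM factors, and leaving out each library.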

Additional observations from a re-analysis of the deposited data

Results flagged for a closer look

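Some genes differed between WT and KO mice in their change from liver to tumour. The values below are that difference on the log2 scale, KO minus WT, and the adjusted p is of its own test in edgeR over all genes. For Wfdc2 the difference was 3.57 and was not tested, because it contains the comparison that chose the gene. All 3 WT tumours lay below both WT livers and all 3 KO tumours above both KO livers.

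Among the related genes the difference passed the test for Wfdc21 (2.59, adjusted p = 0.00188), Serpine2 (3.38, adjusted p = 0.000437), Saa2 (8.65, adjusted p = 0.0268), Serpinb6a (-2.16, adjusted p = 0.0299), Itih2 (-1.49, adjusted p = 0.022) and Hgfac (-1.47, adjusted p = 0.0185). These genes were themselves named for passing a test in comparisons that use the same WT tumour libraries, so this is no independent evidence. For Saa2, 1 KO tumour (16052 counts) and 1 WT liver (24085 counts) lay far above the other libraries of their groups. Groups of 2 or 3 libraries are too small for a test of single outlying libraries.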

How the results depend on the processing

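RLE and upper quartile scaling changed no call of the 5 genes. In WT tumours against WT liver the number of members called, 5 with Wfdc12 counted, was 2 to 5 when single libraries were left out. Wfdc12 passed the filter through the WT tumours alone, so its part in these counts of members is no independent result. Its log2 value fell to 9.73 without WT tumour 2. The call of Wfdc2 (adjusted p = 0.044) ended with the replicate block (0.0541, 4 members called), against a fold change of 1.5 (0.133), in the compared groups alone (0.144) and without WT tumour 3 or any 1 of the KO tumours (0.0601 to 0.0822). Same-numbered libraries did not deviate together (r = -0.00926 to 0.0329), so no pairing by number was seen. With 2 or 3 libraries a group, this check cannot exclude a pairing. The block changed no other call of a member, and over all genes it gave 455 higher and 620 lower.

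In KO tumours against KO liver 0 members were called; without the filter it was 4, in DESeq2 3, and 0 to 2 with single libraries left out. In KO against WT liver the count of 0 became 2 without the filter (Wfdc15b and Spink1). That fit of 21045 genes estimated infinite prior degrees of freedom, so that single genes had no spread of their own; it called 342 and 44 genes in the first and 39 and 72 in the second comparison. DESeq2 called 1274 and 1110 genes, the test against a fold change of 1.5 called 321 and 414, and the fit without the filter 925 and 965, in WT tumours against liver (575 and 743 as reported). Between tumours the same 3 called 826 and 394, 267 and 68, and 746 and 435 (514 and 201 as reported), and for the difference of the tumour-against-liver changes 465 and 262, 147 and 22, and 432 and 203 (193 and 58 as reported). In KO tumours against KO liver (12 and 0 as reported), the compared groups alone gave 0 and 0, and leaving out KO tumour 2 gave 189 and 13. Between tumours, 4 members were lower in KO under each alternative run, and their libraries did not overlap without TMM factors either. The difference of the tumour-against-liver changes was positive for 2 members, and for 1 to 3 with single libraries left out. With single libraries left out, signs turned for the difference of Wfdc15b (-2.65, without WT liver 2, to 4.25) and of Spink1 (-3.85 to 3.11, without KO liver 2), and for Slpi in KO against WT liver (-0.47 to 0.11, without KO liver 2). Groups of 2 or 3 libraries and a coefficient of variation of 71.8% limit what could be called.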
